A study of Mus musculus with 24 samples.

Results

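The nuclear-encoded subunits of the mitochondrial respiratory chain were followed as a family in mouse intestine that had lost Apc. Members were taken by symbol: genes beginning with Ndufa, Ndufb, Ndufc, Ndufs or Ndufv other than the Ndufaf assembly factors (complex I), Sdha to Sdhd (complex II), genes beginning with Uqcr (complex III), and Cox4 to Cox8 followed by a letter (complex IV). Only probe sets assigned to 1 gene symbol were used. The rule found 63 genes, among 15427 genes and 35066 probe sets tested. Complex I had 36 members (76 probe sets), complex II had 4 (8), complex III had 8 (15) and complex IV had 15 (32). Each gene was read from its brightest probe set. A further 9 probe sets carry the symbol of a member together with that of another gene and were left out, so Ndufa11 and Ndufs6 were not measured. Subunits encoded by mitochondrial DNA have other symbols and were not analysed here.

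The respiratory chain sits in the inner mitochondrial membrane and passes electrons from nutrients to oxygen. Complex I takes electrons from NADH and complex II takes them from succinate, both hand them to ubiquinone, complex III passes them on to cytochrome c, and complex IV reduces oxygen to water. Complexes I, III and IV pump protons, and the gradient drives ATP synthase. Complex IV exchanges some subunits between tissues and oxygen levels: Cox6a2 and Cox7a1 are the heart and skeletal muscle forms, Cox4i2 is a form known from lung and low oxygen, and Ndufa4l2 is a hypoxia-induced relative of Ndufa4. In the intestinal epithelium, stem and progenitor cells of the crypt divide under Wnt signals, which Apc restrains, while differentiated enterocytes and colonocytes are rich in mitochondria.

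The samples were Affymetrix MOE430_2 arrays in 8 groups of 3. AhCre-positive mice with both Apc alleles floxed (Apcfl/fl) and AhCre-positive wild-type mice, on an outbred background, were injected with beta-naphthoflavone (3 injections of 80 mg/kg in a day), and small intestine was taken on day 3, 4 or 5. Cre came from a transgene under the Ah promoter, which the drug induces, and the wild-type mice carried the same transgene and drug. The other groups were pooled polyps from the colon of ApcMin mice, which are born with a mutant copy of Apc, and normal colonic mucosa of ApcMin mice. The labels give ApcMin mice as untreated, although the sample numbers listed there leave out 1 of the 6 arrays. Ages are not given in the sources used here. The Apcfl/fl arrays of day 4 are labelled by number only, so the labels do not show that they came from different mice, and where they did not the p-values measure technical spread. All wild-type arrays of day 4 carry a Ras code in their labels, which no other group has and which is not explained there. Anything it stands for cannot be told apart from genotype on that day. Whole tissue was used, so fewer cells of a type and less RNA per cell cannot be told apart.

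Known Wnt targets checked the labels. All 6 (Axin2, Lgr5, Ascl2, Cd44, Sox9 and Myc) were higher in Apcfl/fl than in wild-type mice on each day, and 5 of 6 were higher in polyps than in normal colon. Within groups, arrays correlated at 0.923 to 0.976. Enterocyte markers summed to 16500 to 79530 in the small intestine, against 604 to 2284 in the colonic arrays, and colonocyte markers to 18390 to 25460 in normal colon but only 661 to 1497 in polyps, as signal with every array's geometric mean set to 100. The log2 signals of an array spread more widely in Apcfl/fl mice on day 4 (SD 2.26 to 2.34, against 2.00 to 2.18 in wild-type mice) and on day 5 (2.22 to 2.38, against 1.96 to 2.10), without overlap. Scalings that give every array the same spread were therefore set beside the values.

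Promoters are shown here for 4 of the members that were lower in polyps: Cox6a1, Uqcrc1, Cox8a and the muscle form Cox7a1. Some genes of the chain hold motifs for the regulators NRF1 (GCATGCG) and the ETS factors, which include GABP (CCGGAAG). Each run holds 250 bases before and 50 bases from the RefSeq start on the gene's strand, 5′ to 3′ (GRCm38.p6), and capitals mark matches on either strand. They lie at chr5:115348909-115349208 (minus strand) for Cox6a1, chr9:108936398-108936697 (plus) for Uqcrc1, chr19:7217567-7217866 (minus) for Cox8a and chr7:30183921-30184220 (plus) for Cox7a1.
Cox6a1: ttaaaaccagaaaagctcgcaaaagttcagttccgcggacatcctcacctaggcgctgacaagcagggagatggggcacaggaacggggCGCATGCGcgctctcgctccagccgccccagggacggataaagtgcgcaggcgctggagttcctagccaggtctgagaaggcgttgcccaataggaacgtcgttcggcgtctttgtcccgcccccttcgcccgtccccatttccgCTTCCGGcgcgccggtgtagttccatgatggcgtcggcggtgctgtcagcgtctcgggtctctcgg
Uqcrc1: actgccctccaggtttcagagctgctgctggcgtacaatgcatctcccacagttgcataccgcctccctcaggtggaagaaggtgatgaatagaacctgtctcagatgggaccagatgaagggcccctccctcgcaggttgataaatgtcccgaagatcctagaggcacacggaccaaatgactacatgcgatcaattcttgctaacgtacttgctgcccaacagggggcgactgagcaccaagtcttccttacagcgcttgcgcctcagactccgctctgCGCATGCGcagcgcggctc
Cox8a: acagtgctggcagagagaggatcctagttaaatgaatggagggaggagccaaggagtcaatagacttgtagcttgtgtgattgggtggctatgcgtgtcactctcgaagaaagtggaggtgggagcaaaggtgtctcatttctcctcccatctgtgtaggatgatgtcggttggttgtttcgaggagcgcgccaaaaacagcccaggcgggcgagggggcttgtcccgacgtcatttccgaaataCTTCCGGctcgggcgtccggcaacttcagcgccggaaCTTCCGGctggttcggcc
Cox7a1: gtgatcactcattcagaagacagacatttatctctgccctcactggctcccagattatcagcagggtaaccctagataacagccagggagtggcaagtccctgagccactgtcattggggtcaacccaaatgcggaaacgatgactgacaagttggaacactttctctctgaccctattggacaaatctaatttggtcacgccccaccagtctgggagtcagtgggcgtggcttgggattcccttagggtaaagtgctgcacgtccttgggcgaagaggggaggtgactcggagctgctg

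Cox6a1 held an NRF1 match from position -161 to -154, where the motif overlaps its own reverse complement, and an ETS match from -16 to -10. Uqcrc1 held an NRF1 match from 32 to 39. Cox8a held ETS matches from -5 to 2 and from 33 to 39, counting from 1 at the start with no position 0. Cox7a1 held neither. RefSeq promoters were found for 50 member genes (52 promoters), and 13 members had none in the table. The NRF1 letters were in 6 of the 52 (11.5%), against 3.58% of all 32851 promoters, the ETS letters were in 11 (21.2%, against 8.86%), and the YY1 motif AAGATGG was in 7 (13.5%, against 6.34%). Of the 52, 31 held none of these, so the promoters printed hold matches more often than those of the members do. Of the other members lower in polyps, Ndufa6 held the NRF1 letters, while Ndufb10, Ndufb9, Ndufv3 and Sdhc were not among the genes with a match. These are matches of letters within 300 bases and were not tested as binding sites.

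Few members were called in the small intestine at the scaling used, and in polyps the members that were called were lower. On day 3, 4 members were higher and 4 lower in Apcfl/fl than in wild-type mice (adjusted p under 0.05, limma over all probe sets), where 10.8% of all genes were higher and 7.35% lower. On day 4, 2 were higher and 3 lower (14.9% and 9.86% of all genes). On day 5, 0 were higher and 3 lower (20.5% and 12.9%), with 2 higher and 7 lower at an unadjusted p under 0.05 (26.0% and 19.1% of all genes). Over the mean of the days 10 were higher and 6 lower (29.2% and 24.5%). As shares of 63, the members called higher lay below the share of all genes in each of these comparisons. The median differences of the members were 0.15, 0.13, -0.00 and 0.12 on the log2 scale, against 0.01, 0.03, 0.02 and 0.01 over all genes.

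In polyps, 9 members were lower than in normal colon and 0 were higher (9.11% and 7.45% of all genes), and at an unadjusted p under 0.05 there were 34 lower and 1 higher (16.6% and 15.1% of all genes). The groups of 3 arrays did not overlap for 24 members that were lower and 2 that were higher in polyps (19.2% and 18.4% of all genes). The median difference was -0.60, against -0.02 over all genes, and 59 of the 63 members lay below 0. Bright genes were lower in polyps more widely: the 52 members with a mean scaled signal of 1000 or more (a level chosen after values were seen) had a median of -0.69, with 51 below 0 and 15.4% called lower, and the 1222 other genes of that level had a median of -0.19, with 772 below 0 and 17.3% called lower. Of the 10 housekeeping genes on a list, 7 were measured and had a median of -0.51 in polyps, which was -0.01 after quantile normalization. The list holds Sdha, itself a member of complex II, and without it the medians were -0.33 and 0.06. The count of 9 rested on few arrays: it was 2 without polyp array 1, 2 without polyp array 2, 25 without polyp array 3, 4 without normal colon array 1 and 2 without normal colon array 2. It was also 2 with an offset of 1 in place of 16, when Ndufb10 and Cox7a1 remained. The median stayed between -0.80 and -0.47 when any of the 6 arrays was left out.

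**Figure D1:**
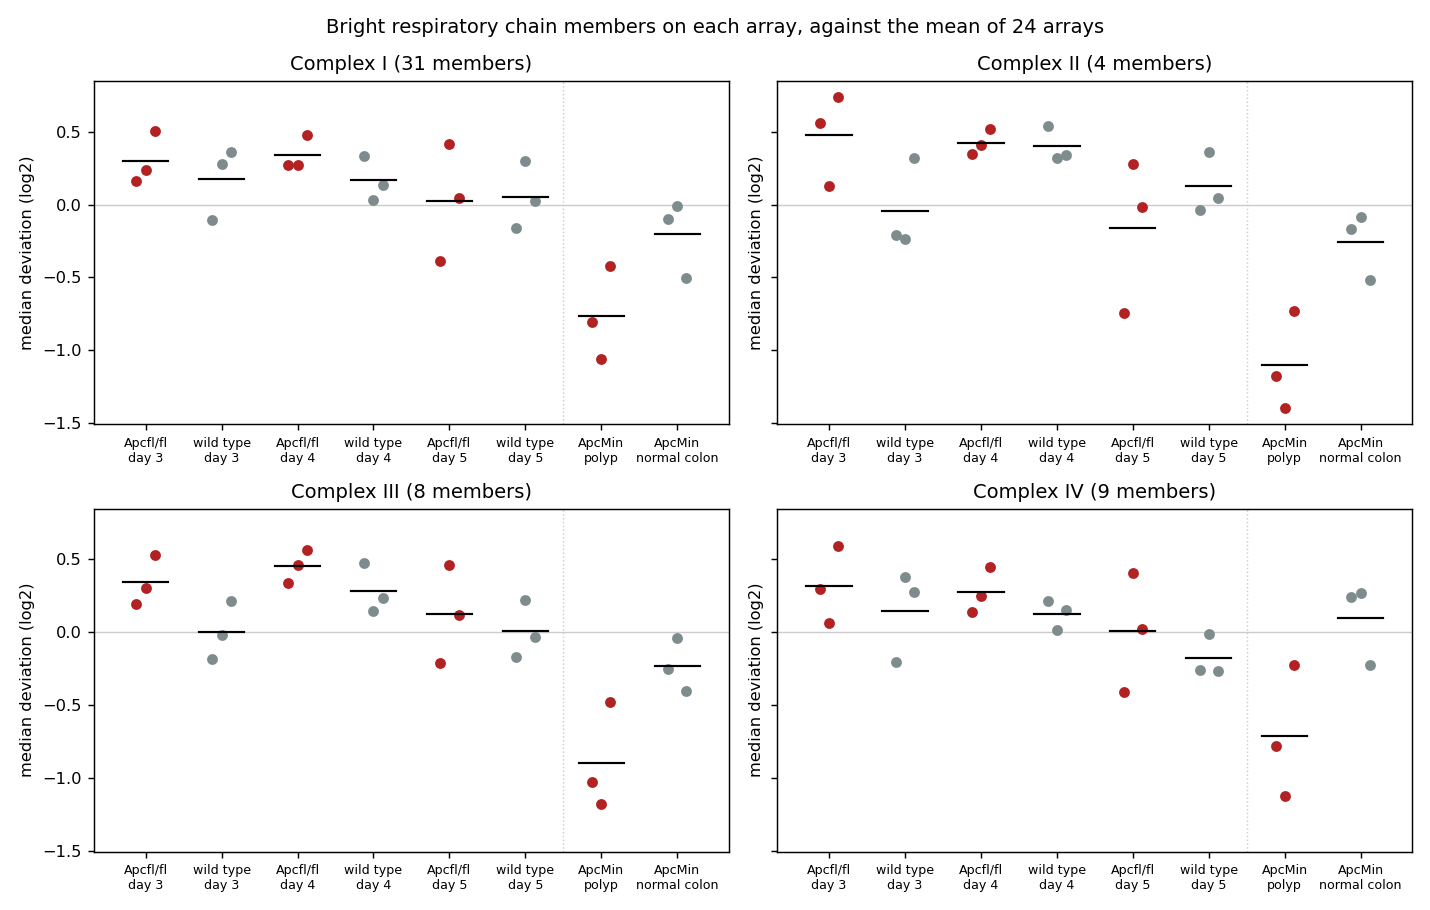
Each point is an array and gives the median, over the bright members of a complex, of the log2 scaled signal minus the member's mean over 24 arrays; panels are the complexes, groups run along the x axis with Apcfl/fl left of wild type and polyp left of normal colon, and bars are group means. Over all bright members the polyp arrays sat at -0.83, -1.11 and -0.41 and the normal colon arrays at -0.06, 0.02 and -0.45.

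Read array by array over these 52 members, the polyp arrays deviated from the members' means by a median of -0.83, -1.11 and -0.41, and the normal colon arrays by -0.06, 0.02 and -0.45. Polyp array 3 and normal colon array 3 thus overlapped. On day 5 the medians were -0.40, 0.40 and 0.03 in Apcfl/fl mice and -0.18, 0.27 and -0.02 in wild-type mice. On day 4 they were 0.26, 0.27 and 0.48 in Apcfl/fl and 0.33, 0.04 and 0.16 in wild-type mice, and on day 3 they were 0.22, 0.21 and 0.55 in Apcfl/fl and -0.17, 0.23 and 0.27 in wild-type mice. The genotypes overlapped on every day, and the 3 arrays of Apcfl/fl day 5 covered the widest range of the small intestinal groups.

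**Figure D2:**
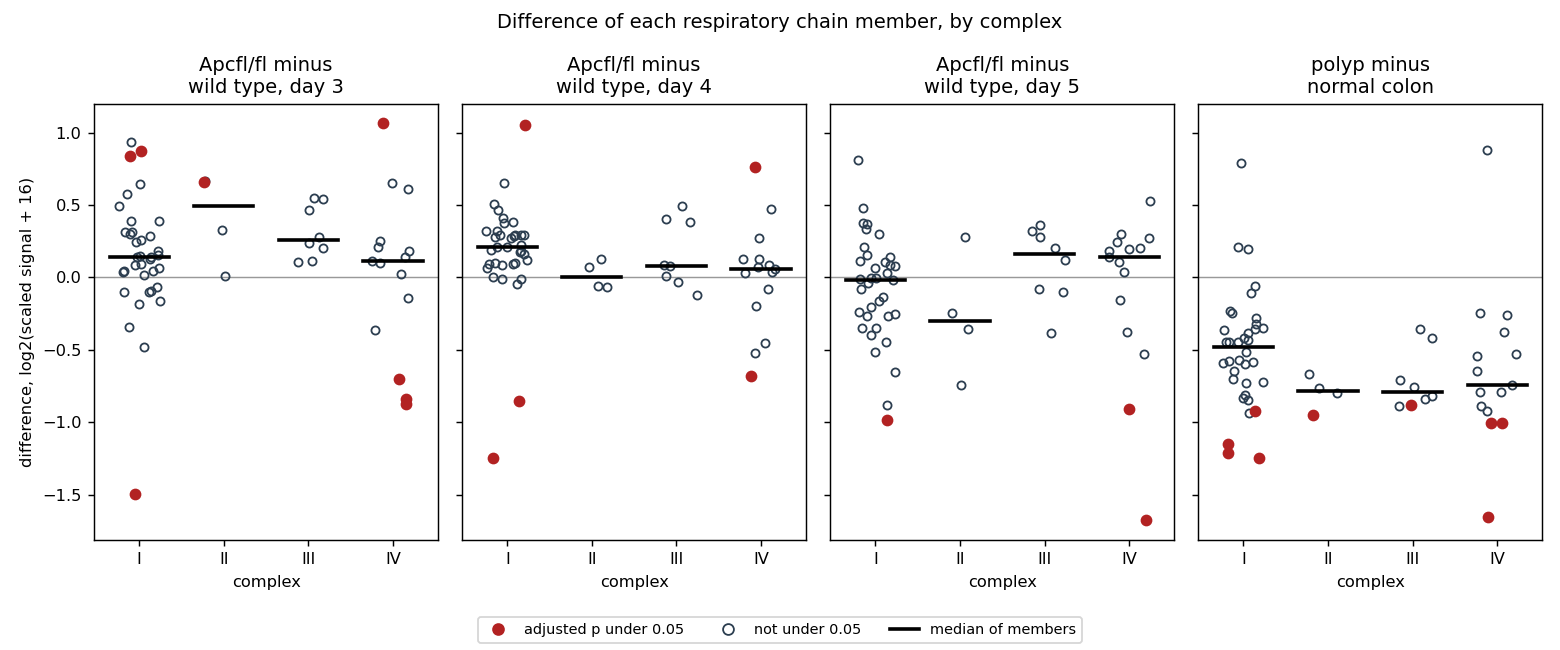
Each point is a member and gives its difference in log2(scaled signal + 16), Apcfl/fl minus wild type on days 3, 4 and 5 and polyp minus normal colon, by complex; filled points have an adjusted p under 0.05 and bars are the medians of a complex. In polyps all 4 complexes have medians below 0 (-0.48, -0.78, -0.79 and -0.74 from I to IV).

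By complex, the polyp medians were -0.48 for complex I (33 of 36 members below 0), -0.78 for complex II (4 of 4), -0.79 for complex III (8 of 8) and -0.74 for complex IV (14 of 15). In the mean of the days, Apcfl/fl minus wild type, they were 0.09 for complex I (26 of 36 above 0), 0.00 for complex II (2 of 4), 0.17 for complex III (8 of 8) and 0.13 for complex IV (10 of 15). Markers of other cells moved with the polyp difference. Smooth muscle markers summed to 1828 to 4101 in polyps, against 12180 to 17160 in normal colon (7 of 7 lower). Colonocyte markers were lower for 5 of 6 and higher for 1, Ces1g, which averaged 111 in polyps, against 25.5 in normal colon. Leukocyte markers summed to 7322 to 12340 in polyps, against 2373 to 4029 in normal colon. Of the 8 leukocyte markers 4 were higher and 1 lower, and S100a8 and S100a9, of neutrophils, averaged 3170 and 3080 in polyps, against 47.4 and 24.0 in normal colon, while Cd79a, of B cells, averaged 52.4 in polyps, against 299 in normal colon. The part of these cells in the lower level of the chain was not tested.

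**Figure D3:**
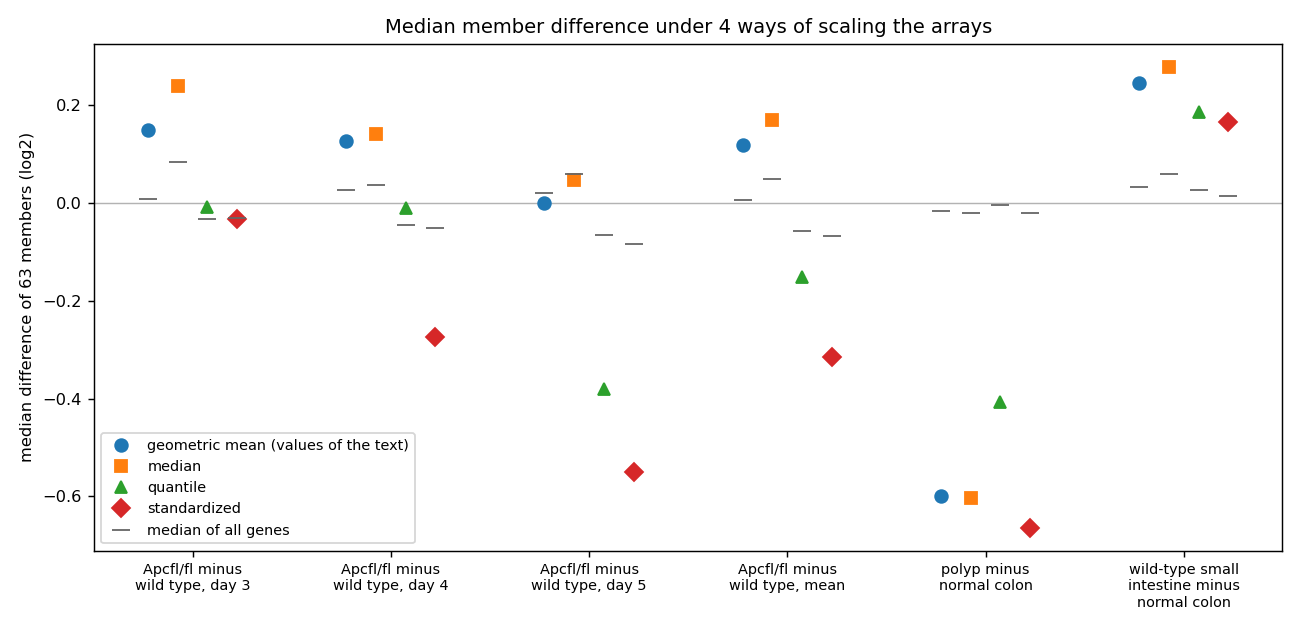
Each point is the median difference of the 63 members (y axis, log2) in a comparison (x axis) under 1 of 4 ways of scaling the arrays, and the dashes are medians over all genes. The small intestinal medians change sign between scalings, while the polyp median stays at -0.66 to -0.41 and the median of wild-type small intestine minus normal colon at 0.17 to 0.28.

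The direction of the small intestinal medians depended on the scaling. The mean of the days was 0.12 with the geometric mean set to 100 and 0.17 with arrays centred on the median, but -0.15 after quantile normalization and -0.32 for the deposited standardized values, which give every array the same spread. In that order 10, 12, 2 and 2 members were higher and 6, 6, 14 and 33 were lower. On day 5 the number lower was 3, 3, 22 and 29 in the same order. No direction is therefore given for the family in the small intestine. At the scaling used, the bright members had a median of 0.13 in the mean of the days and the other bright genes one of 0.23. The polyp median was -0.60, -0.60, -0.41 and -0.66, with 9, 10, 10 and 9 members lower. These were not wholly the same members: Cox6a1, Cox8a and Ndufb9 lost the call after quantile normalization, which added 5 other calls, and Cox6a1 lost it for the standardized values, which added 2.

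Complex I had 4 members that were lower in polyps: Ndufb10, Ndufb9, Ndufa6 and Ndufv3. They are accessory subunits, outside the catalytic core, and Ndufv3 belongs to the NADH-oxidizing module. Ndufb10 gave scaled signals of 496, 484 and 588 in polyps, against 1414, 1380 and 1014 in normal colon. The groups stood well apart, and the difference was -1.25 ± 0.23 (log2, SE, adjusted p = 0.00604, 0.42-fold). It kept its call under each of the 16 alternatives run.

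Ndufa6, a LYR-motif subunit of the matrix arm, gave 1789, 1142 and 2152 in polyps, against 3597, 4282 and 3162 in normal colon, a difference of -1.15 ± 0.28 (adjusted p = 0.021). Ndufv3 gave 1064, 727 and 1448 in polyps, against 2620, 3015 and 1820 in normal colon (-1.21 ± 0.30, adjusted p = 0.0244). Ndufb9, another LYR-motif subunit, gave 2207, 1734 and 2876 in polyps, against 4377, 4873 and 3571 in normal colon (-0.93 ± 0.26, adjusted p = 0.037). None of the 3 overlapped, and polyp array 3 was the highest polyp array for each. All 3 calls were lost on leaving out polyp array 1, polyp array 2 or normal colon array 2, those of Ndufb9 and Ndufv3 also without normal colon array 1, and that of Ndufb9 also without normal colon array 3 and after quantile normalization. All 3 were also lost with an offset of 1.

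No core subunit that was measured passed the threshold in polyps. Ndufv1, which binds the flavin that takes electrons from NADH, gave 1056, 856 and 1555 in polyps, against 1158, 2020 and 1532 in normal colon (-0.45 ± 0.29, adjusted p = 0.348). Ndufs1, the largest iron-sulphur subunit, gave 591, 571 and 765 in polyps, against 823, 976 and 694 in normal colon (-0.36 ± 0.24, adjusted p = 0.339). Both overlapped. Of the 6 measured core subunits 0 were called in polyps by limma, with 1 lower at an unadjusted p under 0.05 and a median of -0.39. Ndufab1, the mitochondrial acyl carrier protein, gave 1047, 967 and 1358 in polyps, against 1515, 1502 and 1090 in normal colon (-0.28 ± 0.24, adjusted p = 0.485).

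Ndufa4 lay above 0 in polyps. The gene was named for complex I, and its protein is now placed in complex IV. It gave 2588, 2051 and 3674 in polyps, against 1419, 1981 and 1318 in normal colon, without overlap but not past the threshold (0.79 ± 0.28, adjusted p = 0.0854). The other members above 0 in polyps were Cox6b2 (0.88), Ndufa4l2 (0.21) and Ndufb1 (0.20), all dim and none called.

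**Figure D4:**
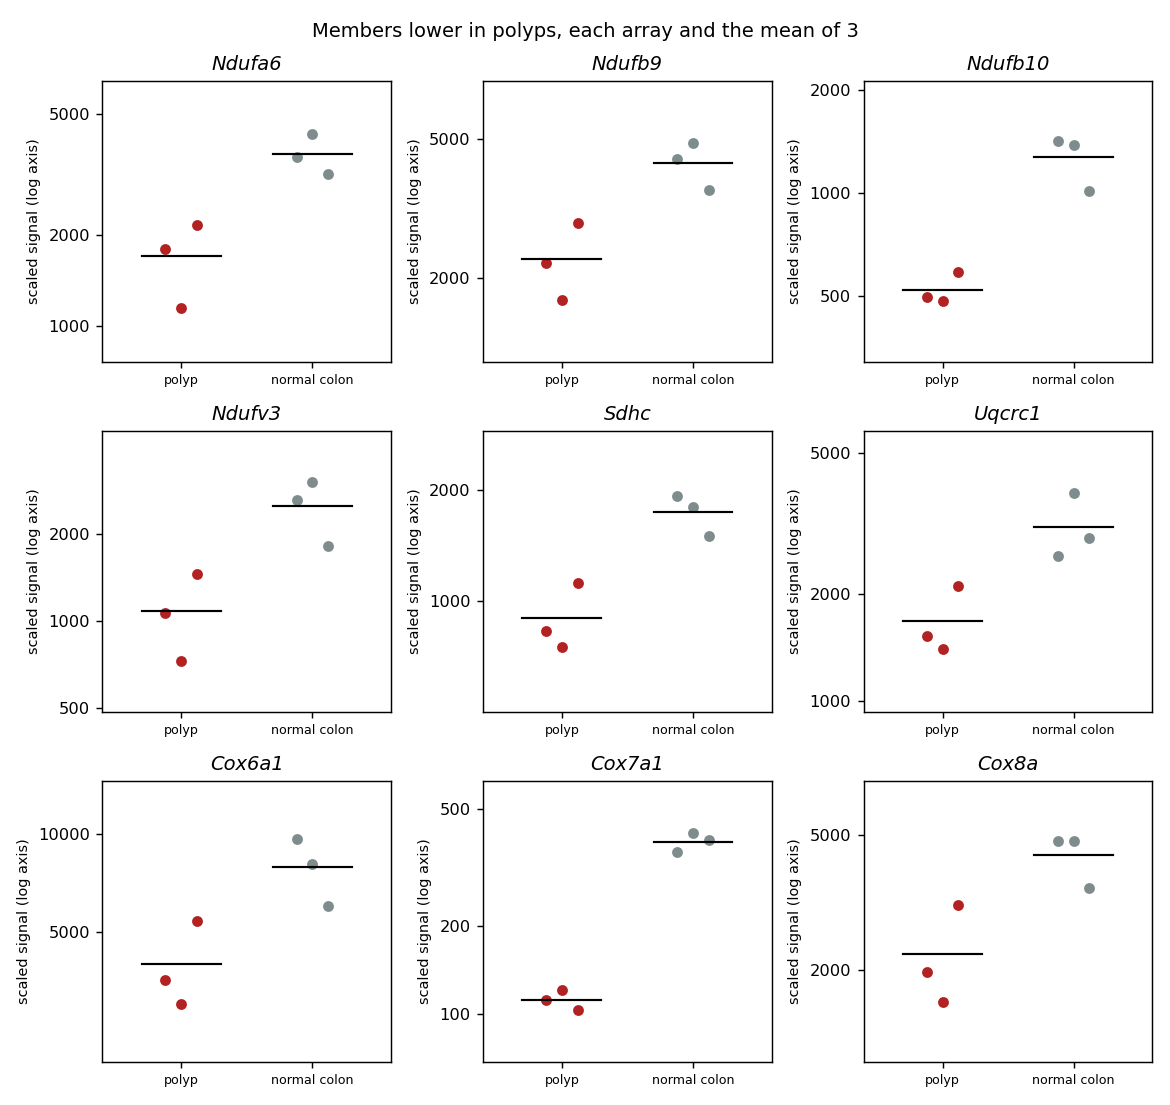
Scaled signal (log axis) of the 9 members that were lower in polyps, by array, with polyp arrays left of normal colon arrays for each gene and a bar at each group's mean. Ndufb10 lies between 484 and 588 in polyps and between 1014 and 1414 in normal colon.

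In the small intestine, Ndufs1 was a core subunit that passed the threshold. Of the 8 calls made on day 3 across the chain, 1 remained when the fit held the 6 arrays of that day alone (Ndufa4l2) and 3 with array weights. On day 3 it gave 1607, 1298 and 1728 in Apcfl/fl mice, against 895, 591 and 1154 in wild-type mice, without overlap (0.84 ± 0.24, adjusted p = 0.0215). On day 4 it gave 1297, 1117 and 1457 in Apcfl/fl and 1306, 1073 and 1225 in wild-type mice, and on day 5 it gave 990, 1216 and 1431 in Apcfl/fl and 913, 1316 and 1058 in wild-type mice. These overlapped (0.10 and 0.14, adjusted p = 0.799 and 0.682). The day 3 call was lost without Apcfl/fl array 1 or 3 or wild-type array 2 of that day. The mean of the days (0.36, adjusted p = 0.0365) lost its call under 13 of 29 alternatives, and was 0.07 at its lowest.

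Ndufa5, an accessory subunit, was also higher on day 3, at 1429, 1453 and 2246 in Apcfl/fl mice, against 1124, 605 and 1082 in wild-type mice (0.88 ± 0.27, adjusted p = 0.0327). It lost this call without Apcfl/fl array 3 or wild-type array 2 of day 3, after quantile normalization, for the standardized values and with an offset of 1. Ndufa2 and Ndufa7, both small accessory subunits, passed only in the mean of the days (0.31 ± 0.12 and 0.36 ± 0.15, adjusted p = 0.0392 and 0.0496) and lost the call after quantile normalization and for the standardized values. Both calls were also lost on leaving out any of several single arrays, among them Apcfl/fl array 3 of day 3, 4 or 5. That of Ndufa7 was also lost with an offset of 1 and with array weights.

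Ndufb1 and Ndufb4, accessory subunits of the membrane arm, moved in opposite directions on dim probe sets. Ndufb1 gave 247, 213 and 233 on day 4 in Apcfl/fl mice, against 98.5, 72.3 and 149 in wild-type mice, a difference of 1.06 ± 0.34 (adjusted p = 0.0342). On day 3 it gave 113, 195 and 109 in Apcfl/fl and 61.5, 32.2 and 114 in wild-type mice, and on day 5 it gave 163, 326 and 154 in Apcfl/fl and 105, 135 and 88.6 in wild-type mice. The groups overlapped on day 3 only. The mean of the days was 0.93 ± 0.20 (adjusted p = 0.000741) and kept its call under each of 29 alternatives, while the day 4 call was lost under 8 of 29, among them leaving out any Apcfl/fl array or wild-type array 1 or 2 of that day.

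Ndufb4 gave 35.5, 28.1 and 30.9 on day 4 in Apcfl/fl mice, against 72.4, 63.2 and 73.7 in wild-type mice (-0.85 ± 0.23, adjusted p = 0.0155), and 44.9, 24.6 and 20.9 on day 5 in Apcfl/fl mice, against 98.1, 54.8 and 71.0 in wild-type mice (-0.98 ± 0.23, adjusted p = 0.00435). On day 3 it gave 62.7, 45.8 and 54.5 in Apcfl/fl and 87.6, 83.5 and 51.8 in wild-type mice, which overlapped. Its call on day 5 and in the mean of the days (-0.73 ± 0.13, adjusted p = 0.000251) held under each of 29 alternatives, and the day 4 call was lost without Apcfl/fl array 2 of that day. This probe set lay below the geometric mean of 100 on all 24 arrays, and the 2 probe sets shared with the copies Ndufb4b and Ndufb4c were left out. Detection calls were not used here, so whether such dim probe sets lie above background is not known.

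The other named members of complex I did not pass in the small intestine at the scaling used, but on day 5 the number of complex I members lower was 13 of 36 after quantile normalization (median -0.42) and 18 of 36 for the standardized values (median -0.58), against 1 here. Ndufb10 gave 1605, 1635 and 1852 in Apcfl/fl and 1192, 1689 and 1799 in wild-type mice on day 3, and 810, 1723 and 1253 in Apcfl/fl and 1463, 2065 and 1712 in wild-type mice on day 5. Ndufa6, Ndufb9, Ndufv1, Ndufab1 and Ndufa4 differed by -0.45 to 0.49 over the 3 days, and Ndufv3 by -0.65 to -0.01, and none was called. Ndufv3 on day 5 came nearest, with 1280, 1996 and 1811 in Apcfl/fl mice, against 2254, 3194 and 2533 in wild-type mice, without overlap (-0.65 ± 0.25, adjusted p = 0.0555), and it was called after quantile normalization (-1.08, adjusted p = 0.000748) and for the standardized values (-1.20, adjusted p = 0.00199). Dimmer probe sets went against the brightest for Ndufa10 and Ndufa12 on day 5 (-1.15 and -0.73, against 0.37 and 0.33), Ndufab1 on day 3 (0.94, against -0.10), and Ndufv2 and Ndufs4 in the mean of the days (-0.36 and -0.33, against 0.04 and 0.30), where the dimmer was called and the brightest was not.

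Complex II, succinate dehydrogenase, also serves the citric acid cycle. Sdha carries the flavin and Sdhb the iron-sulphur clusters, and Sdhc and Sdhd anchor the enzyme in the membrane. In polyps all 4 members lay below 0, and Sdhc was called. Sdhc gave 832, 754 and 1119 in polyps, against 1925, 1799 and 1505 in normal colon (-0.95 ± 0.24, adjusted p = 0.0249). Sdha gave 1349, 1233 and 1836 in polyps, against 2618, 2850 and 2197 in normal colon, without overlap and next to the threshold (-0.80 ± 0.24, adjusted p = 0.0503). Sdhb gave 1337, 1141 and 1832 in polyps, against 2794, 2778 and 1780 in normal colon, where polyp array 3 and normal colon array 3 crossed (-0.76 ± 0.27, adjusted p = 0.0918). The Sdhc call was lost without polyp array 1 or 2 or normal colon array 1 or 2, and with an offset of 1.

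In the small intestine, Sdha was higher on day 3, at 4354, 3428 and 4733 in Apcfl/fl mice, against 2685, 2064 and 3194 in wild-type mice (0.66 ± 0.21, adjusted p = 0.0336). On days 4 and 5 it gave 3870, 3839 and 4047 and then 3019, 3556 and 4200 in Apcfl/fl mice, against 4015, 3396 and 3379 and then 2685, 3330 and 2819 in wild-type mice, which overlapped. The day 3 call was lost without Apcfl/fl array 1 or 3 or wild-type array 1 or 2 of that day, and after quantile normalization and for the standardized values. The mean of the days was 0.36 ± 0.12 (adjusted p = 0.0186), but it was -0.07 for the standardized values, and a dimmer probe set of Sdha gave -0.06. Sdhb gave 4792, 3220 and 5490 in Apcfl/fl and 3304, 5374 and 4697 in wild-type mice on day 3, with a mean over the days of -0.14 ± 0.15 (adjusted p = 0.477).

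Sdhc on day 5 gave 871, 2494 and 1322 in Apcfl/fl mice, against 2129, 2781 and 2323 in wild-type mice, where Apcfl/fl arrays 1 and 3 were low and array 2 lay among the wild-type arrays (-0.75 ± 0.29, adjusted p = 0.0564). For Sdhd, the brightest probe set gave 0.67 on day 3 (adjusted p = 0.0959) and a dimmer one gave -1.24 (adjusted p = 0.00413), so no direction is given for it.

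Complex III lay below 0 in polyps for 8 of 8 members, and 1 was called. Uqcrc1, a core subunit of the matrix side, gave 1525, 1396 and 2102 in polyps, against 2568, 3851 and 2883 in normal colon (-0.88 ± 0.26, adjusted p = 0.0442, 0.54-fold). Uqcrfs1, the Rieske iron-sulphur protein that passes electrons towards cytochrome c1, gave 1211, 1109 and 1703 in polyps, against 2464, 2703 and 1926 in normal colon (-0.82 ± 0.25, adjusted p = 0.0544). Uqcr10, a small accessory subunit, gave 759, 712 and 1211 in polyps, against 2113, 1525 and 1318 in normal colon (-0.89 ± 0.28, adjusted p = 0.0621). None of the 3 overlapped. For Uqcrb, a small subunit, a dimmer probe set was called (-1.20, adjusted p = 0.00675) and the brightest was not (-0.76, adjusted p = 0.0812). The Uqcrc1 call was lost without polyp array 1 or 2 or normal colon array 2 or 3, and with an offset of 1.

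In the small intestine, Uqcrc1 gave 4835, 4867 and 6390 in Apcfl/fl and 3282, 6393 and 5712 in wild-type mice on day 3, then 4172, 5466 and 5344 in Apcfl/fl and 5360, 4621 and 5286 in wild-type mice on day 4, and 3521, 5965 and 4304 in Apcfl/fl and 3582, 4603 and 4245 in wild-type mice on day 5. The genotypes overlapped on each day, and the mean of the days was 0.07 ± 0.14 (adjusted p = 0.73). Uqcrfs1 likewise gave 0.01 ± 0.13 (adjusted p = 0.956). All 8 members of complex III lay above 0 in the mean of the days, at 0.01 to 0.47, and Uqcr10 (0.47 ± 0.14, adjusted p = 0.0102) and Uqcrq, another small subunit (0.32 ± 0.13, adjusted p = 0.0492), were called. Both calls were lost after quantile normalization, when 3 of 8 lay above 0, and for the standardized values, when 1 of 8 did and 4 were called lower. That of Uqcrq was also lost with an offset of 1, with array weights, with all 24 arrays in the fit and on leaving out any of several single arrays. Among these were all Apcfl/fl arrays of day 4. The Uqcr10 call was also lost over the mean of its probe sets.

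Complex IV, cytochrome c oxidase, had 3 members that were lower in polyps: Cox6a1, Cox8a and Cox7a1. Cox6a1, the form of Cox6a made outside muscle, gave 3556, 3001 and 5430 in polyps, against 9694, 8123 and 6000 in normal colon (-1.01 ± 0.29, adjusted p = 0.0423, 0.50-fold). Cox8a, the common form of the smallest subunit, gave 1976, 1609 and 3121 in polyps, against 4800, 4814 and 3507 in normal colon (-1.004 ± 0.285, adjusted p = 0.0413). The arrays did not overlap, and in both genes polyp array 3 came close to normal colon array 3. Both calls were lost without polyp array 1 or 2 or normal colon array 1 or 2, and that of Cox8a also without normal colon array 3. Both were also lost after quantile normalization and with an offset of 1, Cox6a1 for the standardized values, and Cox8a over the mean of its probe sets.

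Below the threshold in polyps, Cox4i1, Cox5a and Cox7a2 differed by -0.65 to -0.79, and Cox7a2l by -0.26. Cox4i1, the common form of the largest nuclear-encoded subunit, gave 2872, 2185 and 3560 in polyps, against 5153, 5323 and 3835 in normal colon, without overlap (-0.74 ± 0.26, adjusted p = 0.0826). Cox5a gave 3688, 2800 and 4875 in polyps, against 6088, 6550 and 4847 in normal colon (-0.65 ± 0.26, adjusted p = 0.132). Cox7a2, the Cox7a form made outside muscle, gave 3884, 3068 and 5287 in polyps, against 7827, 7427 and 5608 in normal colon (-0.79 ± 0.26, adjusted p = 0.0749). Cox5a overlapped through the third array of each group, and Cox7a2 did not overlap. A dimmer probe set of Cox5a was called (-0.90, adjusted p = 0.0413). Cox7a2l, which joins complexes III and IV in supercomplexes, gave 1096, 761 and 1498 in polyps, against 993, 1674 and 1301 in normal colon (-0.26 ± 0.30, adjusted p = 0.611).

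In the small intestine these common forms did not pass between genotypes at the scaling used. Cox4i1 gave 6154, 5030 and 7005 on day 3, 5272, 5606 and 6459 on day 4 and 3409, 5907 and 4518 on day 5 in Apcfl/fl mice, against 4108, 6557 and 5165, then 5804, 4822 and 5237, then 4010, 4892 and 4285 in wild-type mice. The genotypes overlapped on each day, and the mean of the days was 0.13 ± 0.13 (adjusted p = 0.443). Cox5a (0.07 ± 0.12), Cox6a1 (0.14 ± 0.12), Cox7a2 (0.14 ± 0.14) and Cox8a (0.12 ± 0.14) did not pass either, with adjusted p of 0.383 to 0.674. For the standardized values all 5 were called lower, at -0.42 to -0.32, among 11 of the 15 members of complex IV, and after quantile normalization Cox5a was called (-0.25, adjusted p = 0.0345).

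Cox7c and Cox7a2l were called higher in Apcfl/fl mice at the scaling used, Cox7a2l only in the mean of the days. The Cox7c probe set had a mean log2 level of 6.77 over the arrays, against 12.21 for Cox4i1. Whether it lies above background is not known. Cox7c (read from a dim probe set) gave 110, 113 and 146 on day 3 in Apcfl/fl mice, against 72.8, 32.0 and 51.6 in wild-type mice (1.06 ± 0.24, adjusted p = 0.00562). On day 4 it gave 188, 135 and 138 in Apcfl/fl and 67.6, 104 and 81.0 in wild-type mice (0.76 ± 0.24, adjusted p = 0.0278), and on day 5 it gave 104, 149 and 141 in Apcfl/fl and 79.8, 80.1 and 95.9 in wild-type mice (0.53 ± 0.24, adjusted p = 0.0963). The genotypes did not overlap on any day. The day 4 call was lost without Apcfl/fl array 1 or wild-type array 1 or 3 of that day and for the standardized values. The mean of the days, 0.79 ± 0.14 (adjusted p = 0.000128), held under each of 29 alternatives.

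Cox7a2l gave 1680, 1717 and 2376 on day 3 in Apcfl/fl mice, against 1181, 1056 and 1403 in wild-type mice, and 1804, 1593 and 1908 on day 4 in Apcfl/fl mice, against 1408, 1244 and 1164 in wild-type mice, without overlap on either day. On day 5 it gave 955, 2258 and 1704 in Apcfl/fl and 1109, 1426 and 1247 in wild-type mice, which overlapped through Apcfl/fl array 1. The mean of the days was 0.47 ± 0.15 (adjusted p = 0.0125), and this call was lost after quantile normalization and for the standardized values. Cox6c, another common subunit, was called in the mean of the days (0.38 ± 0.15, adjusted p = 0.0384) and lost the call under the same 2 scalings. Its call was also lost with an offset of 1, with all 24 arrays in the fit and on leaving out any of several single arrays. Among these were Apcfl/fl day 3 array 1 or 3 and wild-type day 4 array 2 or 3.

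The isoforms with restricted expression included members that were lower in Apcfl/fl mice. At the scaling used, lower calls came only from the 11 members with a mean scaled signal under 1000. In the mean of the days 6 of these were lower and 2 higher (24.5% and 29.2% of all genes). Of the 52 bright members 0 were lower and 8 higher (0.0% and 15.4%), against 11.3% and 42.6% of the 1222 other bright genes. The part of signal level in these calls was not tested. Ndufa4l2 gave 65.5, 14.4 and 24.2 on day 3 in Apcfl/fl mice, against 123, 151 and 81.0 in wild-type mice. Day 4 gave 13.7, 38.3 and 16.2 in Apcfl/fl and 59.2, 88.2 and 73.0 in wild-type mice, and on day 5 it gave 29.5, 14.5 and 42.8 in Apcfl/fl and 51.8, 71.0 and 69.8 in wild-type mice. All 9 Apcfl/fl arrays lay below the wild-type arrays of their day. The differences were -1.50 ± 0.33, -1.25 ± 0.33 and -0.88 ± 0.33 (adjusted p = 0.0059, 0.0137 and 0.0545), and the mean of the days was -1.21 ± 0.19 (adjusted p = 6.06e-05). The Apcfl/fl signals are close to the 16 that was added, which draws the difference towards 0. Whether signals this low, here or for Cox4i2, lie above background is not known, so the size of the fold is uncertain. The day 4 call was lost without Apcfl/fl array 1 or 3 or wild-type array 2 of that day.

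**Figure D5:**
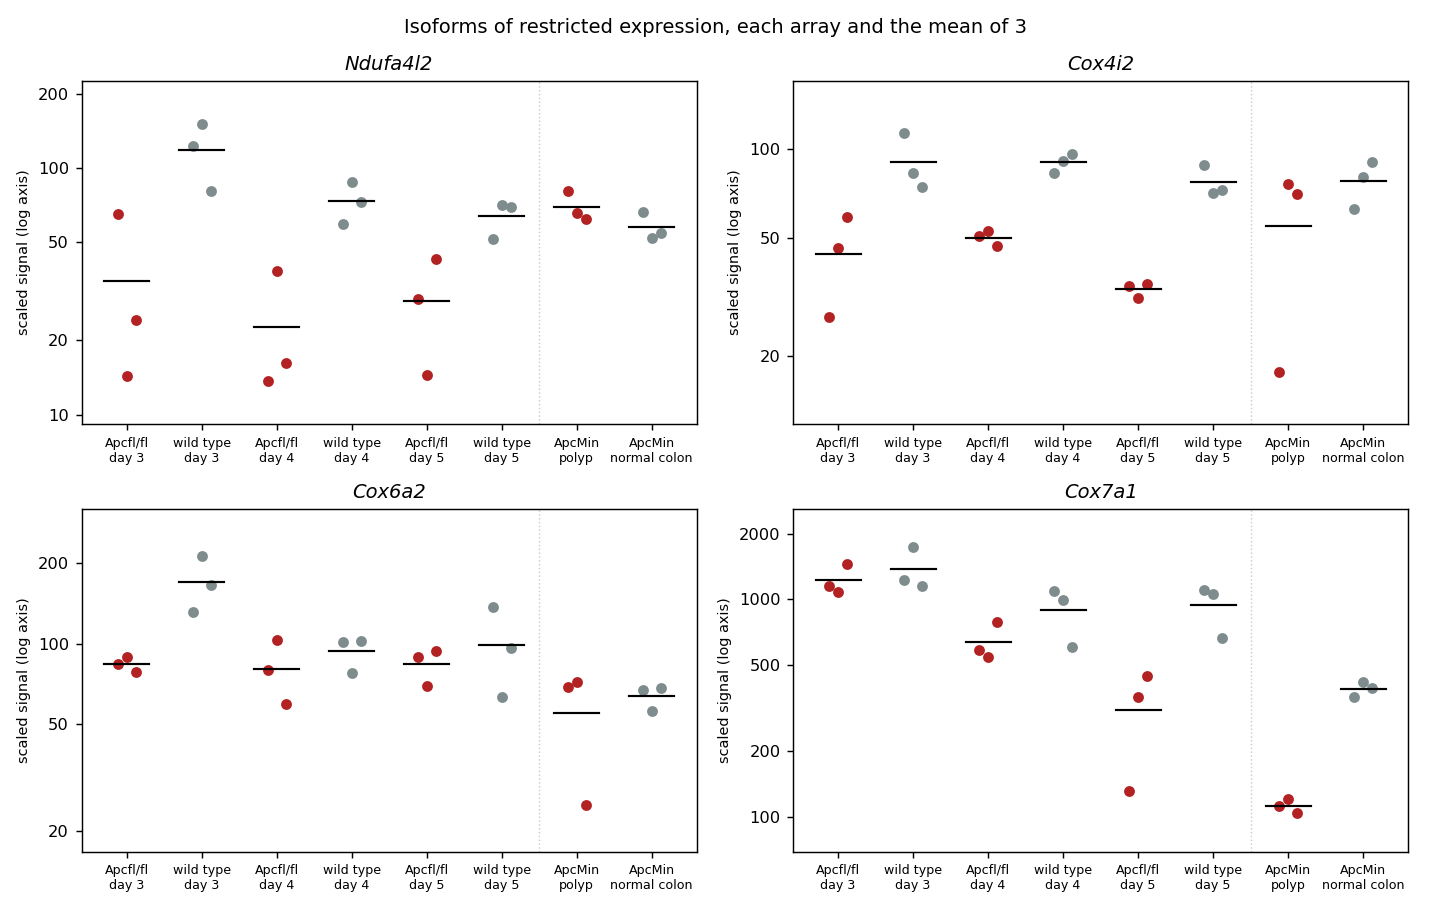
Scaled signal (log axis) of Ndufa4l2, Cox4i2, Cox6a2 and Cox7a1 on each of the 24 arrays, with Apcfl/fl left of wild type on each day, polyp left of normal colon and a bar at each group's mean. For Ndufa4l2 and Cox4i2 every Apcfl/fl array lies below the wild-type arrays of the same day, and for Cox7a1 the genotypes part on day 5 only.

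Cox4i2 gave 27.1, 46.4 and 59.3 on day 3 in Apcfl/fl mice, against 114, 83.1 and 74.5 in wild-type mice. Day 4 gave 51.0, 52.8 and 47.3 in Apcfl/fl and 83.3, 91.5 and 96.8 in wild-type mice, and on day 5 it gave 34.5, 31.4 and 35.2 in Apcfl/fl and 88.9, 71.2 and 72.9 in wild-type mice. It was called on each day (-0.84, -0.68 and -0.91, SE 0.21, adjusted p = 0.0104, 0.027 and 0.00335) and in the mean of the days (-0.81 ± 0.12, adjusted p = 3e-05), and the genotypes did not overlap. The day 3 call was lost without Apcfl/fl array 1, and the day 4 call without any Apcfl/fl array or wild-type array 2 or 3 of that day, after quantile normalization and with all 24 arrays in the fit. In polyps it gave 17.7, 76.7 and 70.5, against 62.8, 81.0 and 90.8 in normal colon, which overlapped (-0.53 ± 0.37, adjusted p = 0.373). Ndufa4l2 gave 80.6, 65.8 and 62.5 in polyps, against 66.4, 52.3 and 54.7 in normal colon (0.21 ± 0.22, adjusted p = 0.557).

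For Ndufa4l2 and Cox4i2 the mean of the days was called under each of 29 alternatives, among them all 4 scalings, as were Ndufa4l2 on day 3 and Cox4i2 on day 5. Both genes are also known from pericytes, the contractile cells around capillaries. Pericyte and endothelial markers (Rgs5, Pdgfrb, Cspg4, Pecam1, Cdh5 and Kdr) summed to 1088 to 1155 in Apcfl/fl mice on day 5, against 800 to 1972 in wild-type mice, and to 541 to 1266 on day 4 in Apcfl/fl mice, against 929 to 1822 in wild-type mice. In the mean of the days 1 of 6 was called lower and 0 higher (24.5% and 29.2% of all genes). The limma p before adjustment was under 0.05 for 3 of the 6, each of them lower (28.0% of all genes). The 1 called was the pericyte marker Cspg4 (-0.86 ± 0.20, adjusted p = 0.00212). It averaged 65.8, 52.0 and 44.0 on days 3, 4 and 5 in Apcfl/fl mice, against 106, 107 and 100 in wild-type mice. Rgs5 averaged 355, 472 and 698 on those days in Apcfl/fl mice, against 521, 886 and 1040 in wild-type mice. Pdgfrb averaged 70.9, 96.9 and 110 in Apcfl/fl mice, against 122, 92.6 and 115 in wild-type mice. The part of these cells in the lower isoforms was not tested.

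Cox7a1, a muscle form, was lower on day 5 and in polyps. On day 5 it gave 132, 354 and 442 in Apcfl/fl mice, against 1109, 1054 and 662 in wild-type mice (-1.68 ± 0.34, adjusted p = 0.00159, 0.31-fold). On day 4 it gave 584, 543 and 784 in Apcfl/fl and 1090, 991 and 603 in wild-type mice, and on day 3 it gave 1151, 1082 and 1458 in Apcfl/fl and 1227, 1741 and 1152 in wild-type mice, which overlapped (-0.45 and -0.14, adjusted p = 0.362 and 0.811). In polyps it gave 112, 121 and 104, against 356, 415 and 392 in normal colon (-1.65 ± 0.21, adjusted p = 0.000787, 0.32-fold). The arrays stood wholly apart in both comparisons. Both calls held under each alternative run, 29 on day 5 and 16 in polyps.

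Smooth muscle markers did not part the genotypes on day 5, at 4651 to 9095 in Apcfl/fl, against 1727 to 8171 in wild-type mice (0 of 7 called), and the adipocyte markers that were measured (2 of the 6 listed) summed to 332 to 456 in Apcfl/fl mice, against 218 to 524 in wild-type mice. In polyps both lists were lower, the adipocyte markers at 153 to 175 against 845 to 1606 in normal colon. Enterocyte markers on day 5 summed to 16500 to 40720 in Apcfl/fl mice, against 42710 to 50030 in wild-type mice (5 of 9 lower), and proliferation markers to 18180 to 21670 in Apcfl/fl mice, against 7442 to 10280 in wild-type mice. The part of these cell types in the Cox7a1 difference was not tested.

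Cox6a2, the other muscle form, was dim and lower on day 3 only, at 84.2, 89.1 and 78.7 in Apcfl/fl mice, against 131.3, 212 and 166 in wild-type mice (-0.87 ± 0.24, adjusted p = 0.0202). On day 4 it gave 79.5, 103 and 59.7 in Apcfl/fl and 101, 77.7 and 102 in wild-type mice, and on day 5 it gave 89.3, 69.6 and 94.0 in Apcfl/fl and 137, 63.3 and 96.4 in wild-type mice, which overlapped. The day 3 call was lost without Apcfl/fl array 3 or wild-type array 2 of that day, and the mean of the days was -0.41 ± 0.14 (adjusted p = 0.0229). Markers of striated muscle summed to 377 to 737 in Apcfl/fl mice on day 3, against 365 to 457 in wild-type mice. The adipocyte markers reached 3740 in wild-type array 1 of day 3, against 161 and 166 in the other wild-type arrays of that day.

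Cox8c, a form of Cox8 known from human testis, gave 350, 329 and 320 on day 3 in Apcfl/fl mice, against 437, 771 and 497 in wild-type mice (-0.70 ± 0.20, adjusted p = 0.0232), a call lost without Apcfl/fl array 2 or 3 or wild-type array 2 of that day. On day 4 it gave 295, 327 and 334 in Apcfl/fl and 460, 454 and 481 in wild-type mice, and on day 5 it gave 279, 247 and 249 in Apcfl/fl and 436, 322.6 and 386 in wild-type mice. The genotypes did not overlap on any day, and the mean of the days was -0.58 ± 0.12 (adjusted p = 0.000483) and held under each of 29 alternatives. In polyps it gave 256, 277 and 311, against 494, 355 and 409 in normal colon, again without overlap (-0.54 ± 0.22, adjusted p = 0.138).

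The polyp difference and the Apcfl/fl difference were compared directly as polyp minus normal colon, less the mean of Apcfl/fl minus wild type over the days. On this measure 22 members were lower and 1 was higher (10.9% and 7.06% of all genes), with a median of -0.73 against -0.10 over all genes. Of these 23, 7 were called in polyps and 5 in the mean of the days, 22 lay below 0 in polyps and 18 above 0 in the mean of the days. Uqcr10 led, at -0.89 in polyps and 0.47 in the mean of the days, a difference of -1.35 ± 0.30 (adjusted p = 0.00334). For Sdha the difference was -1.16 ± 0.24 (adjusted p = 0.0021) and for Cox6a1 it was -1.14 ± 0.28 (adjusted p = 0.00713). Ndufa4l2 was the member that was higher, at 1.42 ± 0.36 (adjusted p = 0.00875). The count of members lower was 5 after quantile normalization and 5 for the standardized values, and these contrasts mix tissue, allele, drug and time since loss of Apc, which cannot be told apart.

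Without polyp array 3 the number lower on this measure was 37 and without Apcfl/fl day 5 array 1 it was 35, while it was 11 and 7 without polyp arrays 1 and 2, and 10 and 9 without normal colon arrays 1 and 2. The median stayed between -0.92 and -0.58 when any array was left out, and was -0.29 after quantile normalization and -0.41 for the standardized values.

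Wild-type small intestine, averaged over the days, was set against ApcMin normal colon. There 10 members were higher in small intestine and 0 were lower (11.3% and 12.2% of all genes), with 21 higher and 1 lower at an unadjusted p under 0.05 (18.2% and 17.6%) and a median of 0.25, against 0.03 over all genes. Of the 52 bright members 15.4% were called higher and 0.0% lower, against 18.7% and 10.1% of the 1222 other bright genes. Their medians were 0.25 and 0.10. Ndufa4 was the clearest, at 3091 to 4214 in wild-type small intestine, against 1318 to 1981 in normal colon (1.15 ± 0.19, adjusted p = 7e-05, 2.21-fold). Cox7a1 was higher by 1.37 ± 0.26 (adjusted p = 0.000386). The core complex I subunits Ndufs7 (0.77), Ndufs8 (0.77) and Ndufs3 (0.59), the iron-sulphur subunit Sdhb (0.71), Uqcrc1 (0.62), Uqcrq (0.57), Ndufab1 (0.63) and Cox6a2 (0.71) made up the rest. Complex IV had a median of 0.01, against 0.29, 0.42 and 0.40 for complexes I, II and III. Markers of other cells differed too: 6 of 7 smooth muscle, 2 of 2 adipocyte and 5 of 6 colonocyte markers were lower in small intestine (medians -2.37, -2.18 and -1.94), and their part was not tested. The groups also differ in genotype and in drug, which cannot be told apart from tissue. Ndufab1 depended on the probe set, at -0.00 over the mean of its 5 probe sets. Without normal colon array 1 or 3, or wild-type day 3 array 3 or day 5 array 2, the count of 10 was 5, 4, 6 and 6.

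Time was examined within the small intestine. The Apcfl/fl difference did not change between days past the threshold for any member: 0 were called between days 3 and 4, 0 between days 4 and 5 and 0 between days 3 and 5 (0.0389%, 0.0259% and 0.791% of all genes), with 1, 1 and 7 at an unadjusted p under 0.05 (9.7%, 8.37% and 16.6% of all genes). Within Apcfl/fl mice, day 5 minus day 3 gave 1 call (14.9% of all genes), Cox7a1 at -2.08 ± 0.34 (adjusted p = 0.0017), with a median over the members of -0.30. The count was 10 after quantile normalization, 17 for the standardized values, all of them lower, and 9 without Apcfl/fl day 5 array 2. Within wild-type mice 0 members were called from day 3 to day 5 (2.94% of all genes) and 0 from day 3 to day 4 (3.42%), with 7 and 7 at an unadjusted p under 0.05 (18.1% and 17.2%).

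The genes that build or serve the chain were described from lists beside its subunits, where 29.2% of all genes were higher and 24.5% lower in the mean of the days. In the mean of the days, 16 of 20 genes of mitochondrial import and the outer membrane were higher and 0 lower (17 and 0 at an unadjusted p under 0.05, beside 31.8% and 28.0% of all genes), with a median of 0.55. Timm8a1, an import chaperone of the intermembrane space (1.38 ± 0.15, adjusted p = 1.15e-06), Vdac1, the outer membrane channel (1.37 ± 0.15, adjusted p = 1.34e-06), and Hspa9, the mitochondrial Hsp70 (1.08 ± 0.18, adjusted p = 7.05e-05), led. Of 18 genes for mitochondrial DNA and its regulators 12 were higher and 1 lower, with a median of 0.55. Pprc1, a coactivator of NRF1 (1.42 ± 0.15, adjusted p = 1.06e-06), Tfam, which packages mitochondrial DNA (0.94 ± 0.13, adjusted p = 1.68e-05), and Tfb2m, a transcription factor of mitochondria (0.91 ± 0.13, adjusted p = 2.35e-05), were higher, and Esrra, a nuclear receptor that drives oxidative genes, was lower (-0.49 ± 0.16, adjusted p = 0.0171). These medians stayed above 0 under all 4 scalings, at 0.27 to 0.60 for import and 0.37 to 0.59 for the regulators, although the number of import genes higher was 10 after quantile normalization and 9 for the standardized values.

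Among assembly factors, 9 of 17 for complex I were higher in the mean of the days and 0 lower (9 and 0 at an unadjusted p under 0.05), beside 29.2% and 24.5% of all genes called, with Ndufaf6 (0.99), Ndufaf4 (0.83) and Ndufaf1 (0.75) in front. For complexes II, III and IV the numbers higher were 2 of 4, 2 of 5 and 7 of 23, and 2 of complex IV were lower, so that the share higher in complex IV was near that of all genes. Lrpprc, which stabilizes mitochondrial messenger RNA, was higher by 0.98 ± 0.14 (adjusted p = 2.68e-05). The medians were 0.35, 0.39, 0.27 and 0.09 for complexes I to IV, and that of complex IV was -0.17 after quantile normalization and -0.20 for the standardized values. Of 13 citric acid cycle genes 7 were higher and 1 lower (median 0.35, but -0.01 for the standardized values), with Suclg2, a subunit of succinyl-CoA ligase, at 0.75 and Ogdh, of the 2-oxoglutarate dehydrogenase complex, at -0.62. Of 15 genes of electron carriers and cytochrome c1, 4 were higher and 1 lower, again near the share of all genes that were higher, and of 18 ATP synthase genes 1 was higher (Atp5g2, 0.40) and 0 lower (3 and 0 at an unadjusted p under 0.05), with medians of 0.15 and 0.09 that lay below 0 under the same 2 scalings.

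In polyps, where 9.11% of all genes were lower and 7.45% higher, ATP synthase had a median of -0.69, with 1 of 18 lower, a share below that of all genes (Atp5k, -1.43 ± 0.32, adjusted p = 0.0162). At an unadjusted p under 0.05, however, 13 of the 18 were lower and 0 higher, beside 16.6% and 15.1% of all genes. Electron carriers and cytochrome c1 had a median of -0.54, with Cyc1, the cytochrome c1 subunit of complex III (-0.92 ± 0.26, adjusted p = 0.0415), and Coq9, of ubiquinone synthesis (-0.88 ± 0.22, adjusted p = 0.0229), lower. Of these 15 genes 7 were lower and 0 higher at an unadjusted p under 0.05. The citric acid cycle had a median of -0.59 with 4 of 13 lower, among them Suclg1 (-1.21), Suclg2 (-1.20) and the citrate synthase Cs (-1.08). Its unadjusted counts were 6 lower and 0 higher. Import genes had a median of 0.23, with 1 of 20 lower and 0 higher (2 and 2 at an unadjusted p under 0.05). The regulators had a median of 0.03, with 3 of 18 lower and 1 higher (4 and 1 unadjusted). Ppargc1b, a coactivator of mitochondrial genes (-2.12, adjusted p = 0.000462), Esrra (-0.87, adjusted p = 0.0329) and Polg2 (-0.82, adjusted p = 0.0406) were lower. Pprc1 was higher (0.76, adjusted p = 0.0389). The assembly factors of complex I had a median of -0.19 with 0 of 17 called (1 higher and 0 lower at an unadjusted p under 0.05). Those of complexes II and III had medians of 0.27 and -0.07, with 0 of 4 and 0 of 5 called (2 and 1 higher and 0 lower unadjusted). Those of complex IV had a median of -0.32, with 2 of 23 lower, Higd1a (-1.27) and Cox11 (-0.84), and 0 higher (6 lower and 0 higher unadjusted).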

How the data were processed

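Members and gene lists were chosen with earlier results of these data known. The authors deposited a score for each probe set and array in 2 tables that held identical values in 842640 of 842640 cells. Judged by the values, each score is a natural log of signal, centred on the mean of its array and divided by the SD. No summarisation software is named in the labels or methods. The spacing of the lowest values (floor 1, step 0.1) gave back each array's signal, and 100% of signals under 500 came out as whole steps (within 0.1 of a step). The geometric mean signal was 69.1 to 178, and the SD was 1.87 to 2.38 on the log2 scale. After each array's geometric mean was set to 100, tests used log2(scaled signal + 16). Standardized values had not been foreseen in the planned design, which was applied to the signal as to any linear unit.

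Of 35110 probe sets listed, 44 controls were left out. Gene symbols came from the platform table: 28153 probe sets had 1 symbol, 769 several and 6144 none. It is not known whether other probe sets of the platform were left out.

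Limma 3.58.1 (R 4.3.3) was fitted to 35066 probe sets, on the 18 small intestinal arrays, the 6 colonic arrays or, across tissues, all 24, with Benjamini-Hochberg adjustment over all probe sets and a threshold of 0.05. A gene was read from its brightest probe set. The fit was tested on simulated data. Values by array were set for fixed common subunits and isoforms, and for up to 4 members per complex and direction among those called without overlap on day 4, in the mean of the days or in polyps. Other members were named after their values were seen. With 3 arrays per group an exact test cannot go below p = 0.1, so the moderated test was used throughout. Alternatives were 4 scalings, offsets, filters, other fits and leaving out each array. The number of arrays limits the precision.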

Additional observations from a re-analysis of the deposited data

Results flagged for a closer look

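For 23 members the polyp difference (polyp minus normal colon) and the mean Apcfl/fl difference over the days (Apcfl/fl minus wild type) differed, by a limma test of the difference between them (adjusted p under 0.05): 22 were lower and 1 higher, where 10.9% and 7.06% of all genes were. After quantile normalization 5 members were lower and 2 higher, and for the standardized values also 5 and 2, so most of these calls depended on the scaling. In complex I the polyp difference was below the Apcfl/fl difference for Ndufa6 by -1.22 on the log2 scale, Ndufa12 by -1.17, Ndufb10 by -1.12, Ndufa5 by -1.10, Ndufv3 by -0.97, Ndufs5 by -0.93, Ndufb9 by -0.86 and Ndufa1 by -0.80, and above it for Ndufa4l2, by 1.42. In complex II the difference was -1.16 for Sdha. In complex III it was -1.35 for Uqcr10, -0.95 for Uqcrc1, -0.93 for Uqcrb, -0.87 for Uqcr11 and -0.83 for Uqcrfs1. In complex IV it was -1.30 for Cox6c, -1.17 for Cox7c, -1.14 for Cox6a1, -1.12 for Cox8a, -1.03 for Cox5b, -0.97 for Cox6b1, -0.93 for Cox7a2 and -0.87 for Cox4i1. Polyps and Apcfl/fl tissue differ in tissue, allele, drug and time, which cannot be told apart.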

How the results depend on the processing

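No paired analysis was possible because no pairs can be read from the labels: the methods call the polyp and colonic tissue paired, but the labels give a different animal code for each of the 6 arrays, and Apcfl/fl and wild-type arrays share no numbers. The label codes of polyps and of normal colon differ and cannot be told apart from tissue type, and normal colon array 1 has a label prefix of its own. The Gapdh 3′ to 5′ signal ratio, a sign of RNA quality, on day 4 was 0.797 to 0.827 in Apcfl/fl, against 0.745 to 0.763 in wild-type mice, on day 5 it was 0.831 to 0.963 in Apcfl/fl, against 0.776 to 0.803 in wild-type mice, and 0.771 to 0.796 in polyps and 0.806 to 1.15 in normal colon, while that of Actb overlapped. Its part in the results was not tested.

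Counts of members past the threshold depended on the settings. After quantile normalization, 2 members were higher on day 3, 1 on day 4 and 2 in the mean of the days, 22 were lower on day 5 and 14 in the mean of the days, 1 was higher in polyps, 1 was lower in wild-type small intestine than in normal colon, 2 were higher and 5 lower in polyp minus Apcfl/fl effect, 10 changed in Apcfl/fl from day 3 to day 5 and 1 in wild type from day 3 to day 4. For the standardized values the same counts were 2, 0, 2, 29, 33, 1, 1, 2, 5, 17 and 1, with 5 lower on day 4. With an offset of 1, 1 was higher on day 4 and 2 lower in polyps. With an offset of 64, 6 were lower on day 5, 24 lower and 1 higher in polyps, 1 lower in small intestine, 2 higher in polyp minus Apcfl/fl effect, 4 changed in Apcfl/fl and 1 in wild type (days 3 to 4). Without dim probe sets (mean scaled signal under 50), 7 were lower on day 5, 18 lower in polyps, 1 lower in small intestine, 2 higher in polyp minus Apcfl/fl effect, 3 changed in Apcfl/fl and 1 in wild type (days 3 to 4).

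Among the fits, only the 6 arrays of a day gave 0 higher and 1 lower on day 3 and 4 higher on day 4. All 24 arrays gave 6 lower on day 5, and 24 lower and 1 higher in polyps. Trended and robust variances gave 6 lower on day 5, 15 lower in polyps, 1 lower in small intestine, 2 higher in polyp minus Apcfl/fl effect, 3 changed in Apcfl/fl and 1 in wild type (days 3 to 4). Array weights gave 1 higher and 2 lower on day 3, 5 higher on day 4, 7 lower on day 5, 39 lower and 1 higher in polyps, 1 lower in small intestine, 2 higher and 43 lower in polyp minus Apcfl/fl effect and 6 changed in Apcfl/fl. Averaging every probe set of a gene gave 6 lower on day 5, 21 lower in polyps, 17 higher and 2 lower in small intestine, 3 higher in polyp minus Apcfl/fl effect, 3 changed in Apcfl/fl and 1 in wild type (days 3 to 5). Requiring a log2 difference of 0.5 left 2 higher in the mean of the days. The mean of days 3 and 5, chosen after seeing the data, changed no count by over 1.5 times.

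With 1 array left out, 1 to 6 members were higher and 2 to 5 lower on day 3, 0 to 2 and 1 to 4 on day 4, 0 to 2 and 3 to 11 on day 5, 5 to 15 and 5 to 6 in the mean of the days, 2 to 25 lower in polyps, 4 to 13 higher and 0 to 1 lower in small intestine, 1 to 2 higher and 7 to 37 lower in polyp minus Apcfl/fl effect, 0 to 2 changed in the Apcfl/fl difference from day 3 to day 5, 1 to 9 in Apcfl/fl from day 3 to day 5, and 0 to 1 in wild type over either interval. On day 5, 11 were lower without Apcfl/fl day 5 array 2, 6 without wild-type day 3 array 1, and 5 without Apcfl/fl day 3 array 2 or wild-type day 3 array 2. There 2 were higher without Apcfl/fl day 5 array 1 and 1 without wild-type day 3 array 3. In the mean of the days 5 were higher without Apcfl/fl array 3 of day 3 or 4 or array 2 of day 5, or without wild-type array 2 or 3 of day 4 or 1 or 3 of day 5, and 6 without wild-type day 3 array 1. On day 3, 2 were higher without Apcfl/fl array 1 or 3 and 1 without wild-type array 2, and 2 were lower without Apcfl/fl array 3 or wild-type array 2. On day 4, 0 were higher without array 1 of either genotype and 1 without any other array of that day, and 1 was lower without any Apcfl/fl array or wild-type array 2. Between days 3 and 5 in Apcfl/fl, 9 changed without Apcfl/fl day 5 array 2, 5 without Apcfl/fl day 3 array 2 and 2 without Apcfl/fl day 5 array 1 or wild-type day 3 array 2, and the Apcfl/fl difference changed for 2 without Apcfl/fl day 5 array 2.

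Of 41 calls of named members, 15 held under each alternative. In 972 instances the call was kept and in 122 it was lost with the same direction, while 2 values turned: Sdha in the mean of the days was -0.072 for the standardized values and Ndufab1 between tissues was -0.002 over all its probe sets. The cause of these changes was not tested.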
